A study of Mus musculus with 8 samples.

Results

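The collagen chains are the genes whose symbol is Col, a number, the letter a and a number. Of 56749 features listed in the deposited matrices, 44 carry such a symbol, and all 44 were followed by name, without reference to their values. Nuclei of mouse visceral white adipose tissue were sequenced in 8 libraries, each from 1 mouse, with 2 mice in each of 4 groups. Mice labelled p21+/mCherry were on a standard diet (mCherry SD, rep144 and rep146) or on a high-fat diet (mCherry HFD, rep128 and rep129). Mice labelled p21+/mCherry-Tert (Tert HFD, rep134 and rep136) and p21+/mCherry-TertCi (TertCi HFD, rep138 and rep140) were on the high-fat diet, and neither has a standard-diet group. All 4 groups carry a modified p21 allele, and in the last 2 the p21 promoter drives mouse Tert, the catalytic subunit of telomerase, or TertCi, known from the study as its catalytically inactive form. Such a transgene is made where and when p21 is expressed, so it is not directed to a chosen cell type. The series' design text speaks of the stromal vascular fraction and of p21+/- mice, whereas the sample labels name whole visceral white adipose tissue and p21+/mCherry. Adipocyte-like nuclei, defined below, were found in each of the 8 mice, 92 at the fewest. Values below are given for the mice of each group in the order in which they are listed here.

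Collagens are extracellular proteins built of 3 chains wound into a helix, and each chain has its own gene. Fibrillar chains, such as those of types I, III and V, form the cables of the interstitial matrix. Type IV chains form the sheet under epithelia, around vessels and around each adipocyte. Type VI forms beaded filaments that link both, and is long known in adipose tissue, as is the accumulation of collagen around adipocytes in obesity. Smaller families sit on the surface of fibrils, span the cell membrane or, as types XV and XVIII do, lie near basement membranes. In adipose tissue, PDGFRA-positive progenitors are the cells best known for making fibrillar collagen.

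Library totals ran from 23378488 to 139749876 unique molecular identifiers (UMIs, each standing for 1 captured RNA molecule). Between 1978 and 7433 nuclei per mouse, 30209 in all, passed the filters, with median UMIs per nucleus from 1682 (Tert HFD rep136) to 7133.5 (Tert HFD rep134). Pairs of libraries shared 0 to 14 nucleus barcodes, at most 0.354% of the smaller library. The label check by the transgenes was not informative: Tert RNA stood at 2.66 and 2.01 UMIs in 1000000 in Tert HFD and 2.76 and 2.48 in TertCi HFD, against 3.27 and 3.58 in mCherry HFD, and the mCherry feature had 25 UMIs in all. Groups below are therefore those of the libraries as labelled. The labels name separate mice but no litter, cage or day, and the processing batches of 2 named in the protocol are not assigned to samples, so batch and group cannot be told apart.

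Nuclei were clustered without any collagen gene, and clusters were named from fixed markers. In the names, "-like" stands for that marker call. The cells of 1 class and mouse were summed, so that the mouse is the unit of every comparison, and levels are in CPM, the UMIs of a chain in 1000000 UMIs of that class and mouse. Because the libraries read the 3' ends of RNA, such levels are compared between classes and groups for 1 chain at a time, not between chains. Of the 44 chains, 41 had the 30 UMIs required to place them in a class, and Col2a1, Col9a1 and Col9a2, chains best known from cartilage, did not.

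Progenitor-like nuclei had the highest mean level for 17 of the 41 chains, mesothelial-like nuclei for 9, adipocyte-like and mural-like nuclei for 4 each, endothelial-like nuclei for 3, and lymphatic endothelial-like and dendritic-like nuclei for 2 each. These placements are descriptions, with no test, and for 4 of the 41 (Col1a1, Col6a1, Col22a1 and Col26a1) the mean in free RNA was above that of the highest class. For 10 of the 41, the same class was highest in each mouse in which it was measured (6 progenitor-like, 2 mesothelial-like, and 1 each in adipocyte-like and lymphatic endothelial-like nuclei). All chains together made up 6343 ± 544 CPM (SD, n = 2) of progenitor-like nuclei of standard-diet mice and, among the high-fat groups, 8652 ± 439 with mCherry alone, 7843 ± 1623 with Tert and 6480 ± 673 with TertCi. In each group this was the highest of the classes, and macrophage-like nuclei were the lowest, at 398 ± 89.5 in Tert HFD. Free RNA, read from barcodes of 10 to 100 UMIs, which were taken to hold no nucleus, carried 3279 ± 665 CPM in the same group. Free RNA thus held collagen transcripts at more than the macrophage-like level. A class level at or below that of free RNA is read as background and is not counted as expression. This is a rule of caution, and such a level does not show that the class makes none of the chain's RNA. The depth of free RNA ran from 108012 to 3028609 UMIs a mouse, so that levels of low chains in it rest on few UMIs. The barcodes in this fixed window numbered from 4834 (TertCi HFD rep140) to 198177 (mCherry HFD rep129). Whether the window holds the same kind of barcode in each library was not tested, and each comparison with free RNA below has that limit.

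**Figure D1:**
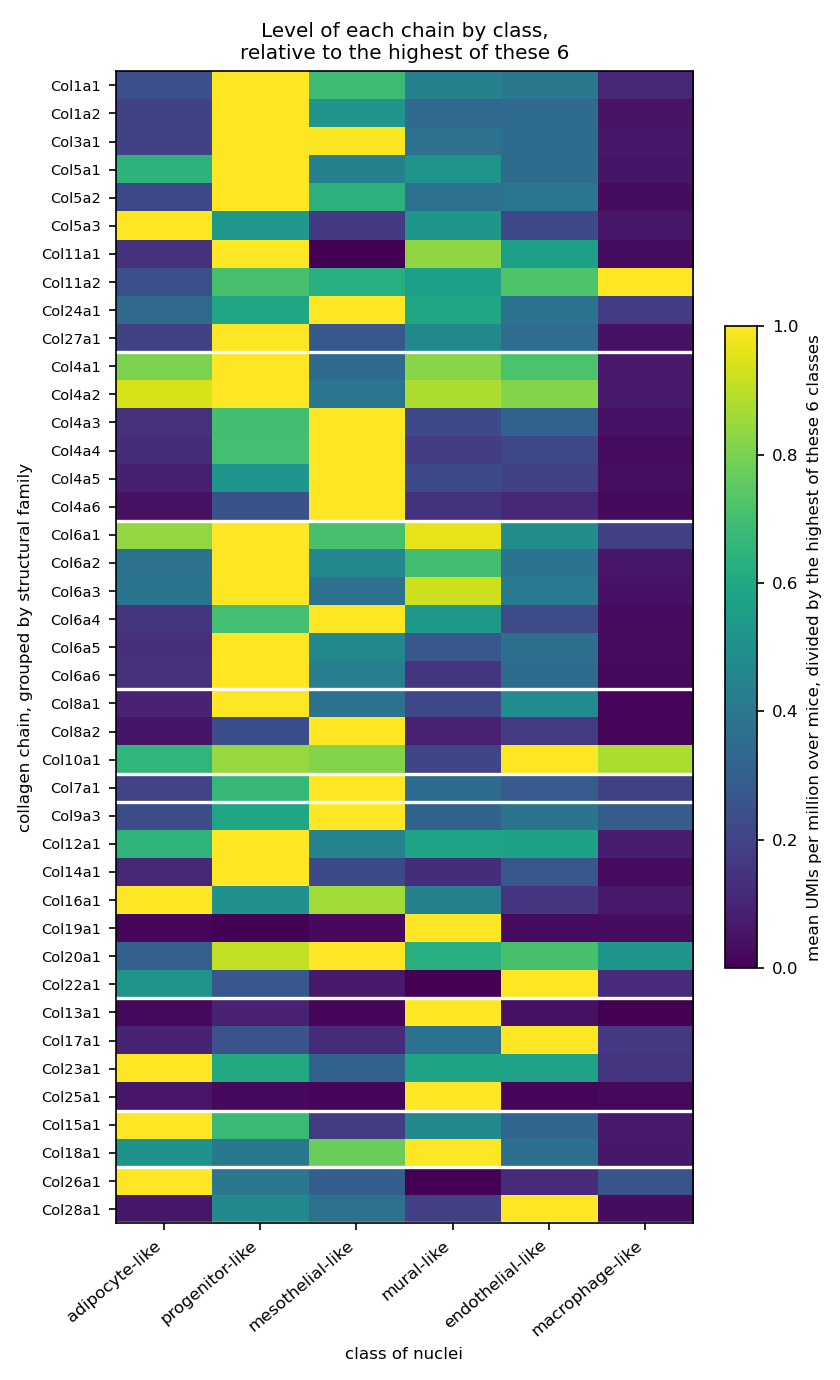
Mean level of each placed collagen chain (rows) in 6 classes of nuclei (columns), with each row divided by the highest of these 6. Col9a3, Col10a1, Col11a2 and Col23a1 had more in lymphatic endothelial-like or dendritic-like nuclei, which are not drawn. Col1a1, Col1a2, Col5a1, Col5a2 and Col27a1 are brightest (yellow) in progenitor-like nuclei, and the Col4a3 to Col4a6 chains in mesothelial-like nuclei.

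Among the fibrillar chains, those of types I, III and V were led by progenitor-like nuclei, with 1 exception. Col1a2, the partner chain of Col1a1 in type I collagen, averaged 458 CPM there (SD 170, 8 mice) and 239 in mesothelial-like nuclei, the next class, and progenitor-like nuclei were highest in 8 of 8 mice. Col1a1 averaged 163 (SD 117) in progenitor-like nuclei, which were highest in 7 of 8 mice. Col3a1, the single chain of type III collagen, did not separate the leading pair: it averaged 1231 (SD 555) in progenitor-like and 1221 in mesothelial-like nuclei, and progenitor-like nuclei were highest in 4 of 8 mice. Col5a1 and Col5a2, chains of the type V collagen that starts fibrils, were highest in progenitor-like nuclei in 8 of 8 mice, at 262 (SD 38.6) and 1081 (SD 81.1). The exception was Col5a3, a further type V chain, which was highest in adipocyte-like nuclei in 7 of 8 mice at 493 (SD 243). Col27a1 averaged 56.9 (SD 18.5) in progenitor-like nuclei, highest in 7 of 8 mice. Col11a1, Col11a2 and Col24a1 stayed at or below a mean of 7.72 in their highest class.

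The type IV chains split into 2 placements that follow their gene pairs, each of which is read from a shared start region in opposite directions. Col4a1 and Col4a2, which together build the common form of type IV, averaged 464 (SD 122) and 352 (SD 73.1) in progenitor-like nuclei, but for Col4a2 these were highest in 3 of 8 mice, with 330 in adipocyte-like nuclei. Col4a5 and Col4a6, on the X chromosome, were highest in mesothelial-like nuclei in 8 of 8 mice. Col4a6 averaged 449 (SD 87.8) there against 111 in progenitor-like nuclei, the next class, a ratio of 4.06. Col4a3 (58.5, SD 19.9) and Col4a4 (97.9, SD 48.0) were highest in mesothelial-like nuclei in 6 and 7 of 8 mice. Mesothelial cells are the lining of the fat pad's surface and rest on a basement membrane.

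For type VI, all chains but the low Col6a4 were highest in progenitor-like nuclei, but Col6a1 stood above that level in free RNA, at 109.7, and its level is read as background. Col6a1 (77.4, SD 21.4) and Col6a3 (268, SD 52.4) hardly differed from their next class, mural-like nuclei, at 75.0 and 248. Col6a6 (234, SD 71.8) separated further, with progenitor-like nuclei highest in 8 of 8 mice and mesothelial-like nuclei next at 100.3. Col8a1, a short-chain network collagen, averaged 552 (SD 249) and Col14a1, which coats fibrils, 627 (SD 137.9), both highest in progenitor-like nuclei in 8 of 8 mice.

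Adipocyte-like nuclei were highest for Col15a1 in 8 of 8 mice, at 375 (SD 119) against 252 in progenitor-like nuclei. They held 47.0% of that chain's UMIs on average over mice. The fibril-associated Col16a1 averaged 32.8 (SD 20.7) in adipocyte-like and 28.2 in mesothelial-like nuclei, with adipocyte-like nuclei highest in 4 of 8 mice. Mural-like nuclei, the cells around small vessels, were highest for the transmembrane Col13a1 in 7 of 8 mice at 7.63 (SD 6.68, with 22 UMIs in all), and for Col25a1 at 15.4 (SD 15.01) and Col19a1 at 47.0 (SD 65.8) in 6 of 8 mice each. The Col19a1 mean was 24.5 without mCherry HFD rep129, which stood at 204. Col18a1, the source of endostatin, averaged 71.1 (SD 34.4) in mural-like nuclei, highest in 5 of 8 mice. Col28a1 was led by endothelial-like nuclei in 7 of 8 mice at 29.5 (SD 11.2). The transmembrane Col23a1 was led by lymphatic endothelial-like nuclei in each of the 4 mice with enough of them, at 70.5 (SD 23.1).

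Promoters are shown for 5 chains on which the comparisons turn, and which no other gene's transcript overlaps. They are the 250 bases before the annotated start, from RefSeq on GRCm38.p6, an older build than the mm39 of the submitters' processing notes, written in the direction of transcription. Of the 44 chains, 35 had a promoter in the RefSeq table. Col1a2 lies at chr6:4505368-4505617 (plus strand), Col3a1 at chr1:45311288-45311537 (plus), Col6a6 at chr9:105828086-105828335 (minus), Col4a5 at chrX:141475169-141475418 (plus) and Col4a6 at chrX:141474077-141474326 (minus). Capitals mark, on either strand, the TATA box letters TATAAA, the CCAAT box, and the GC box letters GGGCGG.
Col1a2: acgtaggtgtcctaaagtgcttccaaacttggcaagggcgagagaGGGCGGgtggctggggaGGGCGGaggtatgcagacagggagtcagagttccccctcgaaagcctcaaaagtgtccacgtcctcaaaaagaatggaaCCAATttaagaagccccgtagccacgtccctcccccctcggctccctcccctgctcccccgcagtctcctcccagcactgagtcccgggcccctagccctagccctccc
Col3a1: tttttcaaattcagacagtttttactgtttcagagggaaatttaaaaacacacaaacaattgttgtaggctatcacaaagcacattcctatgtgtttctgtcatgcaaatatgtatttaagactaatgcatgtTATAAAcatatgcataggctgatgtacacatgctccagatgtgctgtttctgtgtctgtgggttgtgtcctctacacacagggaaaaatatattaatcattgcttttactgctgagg
Col6a6: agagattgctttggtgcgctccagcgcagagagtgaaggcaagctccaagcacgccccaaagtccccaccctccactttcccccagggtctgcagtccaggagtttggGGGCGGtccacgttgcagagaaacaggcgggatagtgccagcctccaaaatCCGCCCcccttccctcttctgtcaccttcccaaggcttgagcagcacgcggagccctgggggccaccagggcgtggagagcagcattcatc
Col4a5: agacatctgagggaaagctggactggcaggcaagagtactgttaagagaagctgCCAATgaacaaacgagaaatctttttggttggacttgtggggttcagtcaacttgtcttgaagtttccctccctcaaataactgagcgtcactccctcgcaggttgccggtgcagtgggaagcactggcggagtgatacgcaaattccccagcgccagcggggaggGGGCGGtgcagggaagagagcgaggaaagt
Col4a6: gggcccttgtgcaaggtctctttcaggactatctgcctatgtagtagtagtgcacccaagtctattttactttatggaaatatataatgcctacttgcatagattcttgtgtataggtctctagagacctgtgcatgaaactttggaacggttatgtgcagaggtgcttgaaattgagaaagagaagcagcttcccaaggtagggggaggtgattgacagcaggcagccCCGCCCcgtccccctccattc
TATAAA stands in the Col3a1 window, beginning 117 bases before the start, and in none of the other 4 shown. It occurs in 12.4% of 32851 RefSeq promoters of this length, CCAAT in 33.8% and GGGCGG in 32.7%. Col1a2 has CCAAT beginning 109 bases before the start and 2 copies of GGGCGG, and Col4a5 has 1 copy each of CCAAT and GGGCGG. The starts of Col4a5 and Col4a6 lie 1343 bases apart and point away from each other, and those of Col4a1 and Col4a2 lie 21 bases apart. These matches describe the letters of the windows and say nothing of binding.

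Differences between groups were tested with edgeR's quasi-likelihood test on summed counts, with Benjamini-Hochberg adjustment over all genes tested in the class. A chain is called at an adjusted p under 0.05. The p-values and SEs rest on a spread estimated from all groups in 1 fit and moderated across genes, not on the mice of a contrast alone. With 2 mice a group, an exact permutation of 2 against 2 could not reach that level. The 3 contrasts against mCherry HFD share those 2 mice. Log2 fold changes are after TMM scaling. Scaling by library totals instead raised the log2 fold change of every gene for the diet by 0.46 over all nuclei and by 0.16 to 0.39 within the classes. It shifted those of Tert HFD and TertCi HFD by -0.36 and -0.48 over all nuclei, by -0.26 and -0.32 in progenitor-like and by -0.34 and -0.50 in adipocyte-like nuclei, so that small positive values such as those of the type V chains would be much smaller on that scale. It turned the sign of none of the chains' calls.

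Over progenitor-like nuclei as a whole, the fibrillar and the type IV chains that were called for the diet moved in opposite directions. On the high-fat diet, 29 chains passed the filter on low counts, 4 rose and 5 fell, against 13.1% of all genes called higher and 10.1% called lower. The 4 that rose were Col1a1, Col3a1, Col1a2 and Col18a1, and the 5 that fell were Col7a1, Col4a4, Col6a6, Col4a6 and Col4a5, the last 2 with the opposite sign in the clusters that every mouse held (below). None of the 6 type IV chains tested rose and 3 fell, while 3 of 8 fibrillar chains rose and none fell. In the clusters that every mouse held, none of these type IV calls was made. Of the fibrillar calls, only those of Col1a1 and Col3a1 were made there. The median over the 29 chains was -0.16 on the log2 scale, against 0.02 for all genes. Leaving out mCherry SD rep144 or mCherry HFD rep128 left 5 calls in place of 9.

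Col1a1 in progenitor-like nuclei stood at 103 and 74.8 CPM in mCherry SD, 405 and 268 in mCherry HFD, 149.7 and 138.2 in Tert HFD, and 67.9 and 95.5 in TertCi HFD. Both mCherry HFD mice lay above all 6 others. The difference for the diet was 1.65 ± 0.26 (log2, SE, n = 2 a group) with adjusted p = 0.00113 by edgeR, for TertCi HFD against mCherry HFD -1.76 ± 0.24 with adjusted p = 0.000268, and for Tert HFD -0.98 ± 0.23 with adjusted p = 0.0108. The call for Tert HFD ended without mCherry HFD rep128 (-0.71, adjusted p = 0.110 by edgeR), Tert HFD rep134 (-0.99, 0.0617) or Tert HFD rep136 (-0.99, 0.0537), whereas the calls for the diet and TertCi HFD were made in each of 8 fits that left out 1 mouse. Free RNA moved with it: Col1a1 in free RNA stood at 69.9 and 82.1 in mCherry SD, 372 and 535 in mCherry HFD, 55.5 and 68.3 in Tert HFD, and 70.2 and 74.4 in TertCi HFD, and its part in the result was not tested. The progenitor-like level was above that of free RNA in 5 of 8 mice.

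Col3a1 stood at 792 and 735 in mCherry SD, 2074 and 1976 in mCherry HFD, 1550.0 and 989 in Tert HFD, and 753 and 979 in TertCi HFD. Both mCherry HFD mice were again above all others, and the Tert HFD mice lay between them and the rest. Its change was 1.10 ± 0.19 for the diet (adjusted p = 0.00131, edgeR) and -0.91 ± 0.19 for TertCi HFD (adjusted p = 0.00244), both made in 8 of 8 fits that left out 1 mouse, and Tert HFD was not called, except without cluster 11, described below. The level was above that of free RNA in 8 of 8 mice. Col1a2 stood at 330.0 and 351 in mCherry SD, 769 and 633 in mCherry HFD, 529 and 411 in Tert HFD, and 296 and 344 in TertCi HFD, with no overlap of mCherry HFD and any other group. For TertCi HFD it was lower by -0.82 ± 0.16 (adjusted p = 0.00146, edgeR). For the diet it was higher by 0.74 ± 0.16 (adjusted p = 0.00557, edgeR), a call that ended without mCherry HFD rep128 (0.66, adjusted p = 0.0579). Col18a1 was also highest in mCherry HFD, at 22.7 and 22.3, 49.7 and 46.7, 29.9 and 21.4, and 18.4 and 19.2, but was above free RNA in 3 of 8 mice.

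None of the 3 type V chains was called for the diet in the whole class. Col5a2 stood at 1113 and 1004 in mCherry SD, 1013 and 1038 in mCherry HFD, 1217 and 1170.0 in Tert HFD, and 1002 and 1089 in TertCi HFD, a narrow range. It was called higher in Tert HFD than in mCherry HFD by 0.47 (adjusted p = 0.0367, edgeR), and the call ended without either mouse of either group, as without mCherry HFD rep128 (0.39, adjusted p = 0.313). It also ended in the 3 clusters that every mouse held, described below (0.25, adjusted p = 0.385, edgeR), and without cluster 11 (0.10, adjusted p = 0.724). Col5a1 stood at 266 and 243, 243 and 201, 320 and 270, and 243 and 309 in the 4 groups. It was higher by 0.66 in Tert HFD (adjusted p = 0.0136, edgeR) and by 0.62 in TertCi HFD (adjusted p = 0.0118), and both calls ended without mCherry HFD rep129 (0.49 and 0.45, adjusted p = 0.181 and 0.170). In the shared clusters its values were 0.39 and 0.30 (adjusted p = 0.182 and 0.249, edgeR), and without cluster 11 they were 0.30 and 0.23 (adjusted p = 0.279 and 0.370). Col5a3 stood at 142 and 199.6, 274 and 251, 367 and 351, and 219 and 296, so that both Tert HFD mice were above all others. It was higher in Tert HFD by 0.70 ± 0.18 (adjusted p = 0.0121, edgeR), not without mCherry HFD rep128 (0.70, adjusted p = 0.0999), mCherry HFD rep129 (0.60, 0.128) or cluster 11 (0.41, 0.163), though called in the shared clusters (0.95, 0.0108). For the diet it was 0.31 (adjusted p = 0.258, edgeR), and was called without cluster 11 (0.63, adjusted p = 0.0475). Col14a1, among the chains with most UMIs in this class, stood at 628 and 585, 710 and 656, 885 and 426, and 498 and 629, overlapping in every comparison, and was not called.

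Col4a4, a chain of the type IV network known from kidney, was lower in mCherry HFD than in every other mouse. It stood at 66.6 and 73.1 in mCherry SD, 34.1 and 21.6 in mCherry HFD, 77.5 and 81.5 in Tert HFD, and 101 and 94.9 in TertCi HFD. The change was -1.57 ± 0.23 for the diet (adjusted p = 0.000408, edgeR), 1.69 ± 0.21 for Tert HFD (adjusted p = 0.000271) and 2.07 ± 0.20 for TertCi HFD (adjusted p = 1.76e-05), each made in 8 of 8 fits that left out 1 mouse. Col4a3, its partner from the shared start region, stood at 30.3 and 29.4, 25.8 and 17.0, 47.8 and 60.9, and 59.8 and 55.4, and was called higher in Tert HFD (1.49 ± 0.24, adjusted p = 0.000993, edgeR) and TertCi HFD (1.68 ± 0.23, adjusted p = 0.000171) but not called for the diet. In free RNA, Col4a4 stood at 29.9 and 20.5, 25.2 and 29.7, 37.0 and 20.1, and 32.8 and 7.08. In the mice with the shallowest free RNA these levels rest on few UMIs, so they cannot show an order.

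Col6a6, a type VI chain whose sequence resembles Col6a3, was also lowest in mCherry HFD in the class as a whole. It stood at 239 and 291 in mCherry SD, 117 and 145 in mCherry HFD, 226 and 247 in Tert HFD, and 329 and 277 in TertCi HFD, so that both mCherry HFD mice lay below all 6 others. The change was -1.33 ± 0.17 for the diet (adjusted p = 0.000192, edgeR), 1.11 ± 0.17 for Tert HFD (adjusted p = 0.000755) and 1.53 ± 0.17 for TertCi HFD (adjusted p = 3.63e-05), each made in 8 of 8 fits that left out 1 mouse. For TertCi HFD against mCherry HFD, 6 chains rose and 5 fell, against 13.9% of all genes called higher and 19.4% called lower. For Tert HFD, 6 rose and 2 fell, against 8.85% and 13.9%. Counts fell from 11 to 7 for TertCi HFD without mCherry HFD rep129, and from 8 to 3 and 4 for Tert HFD without mCherry HFD rep128 and rep129.

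**Figure D2:**
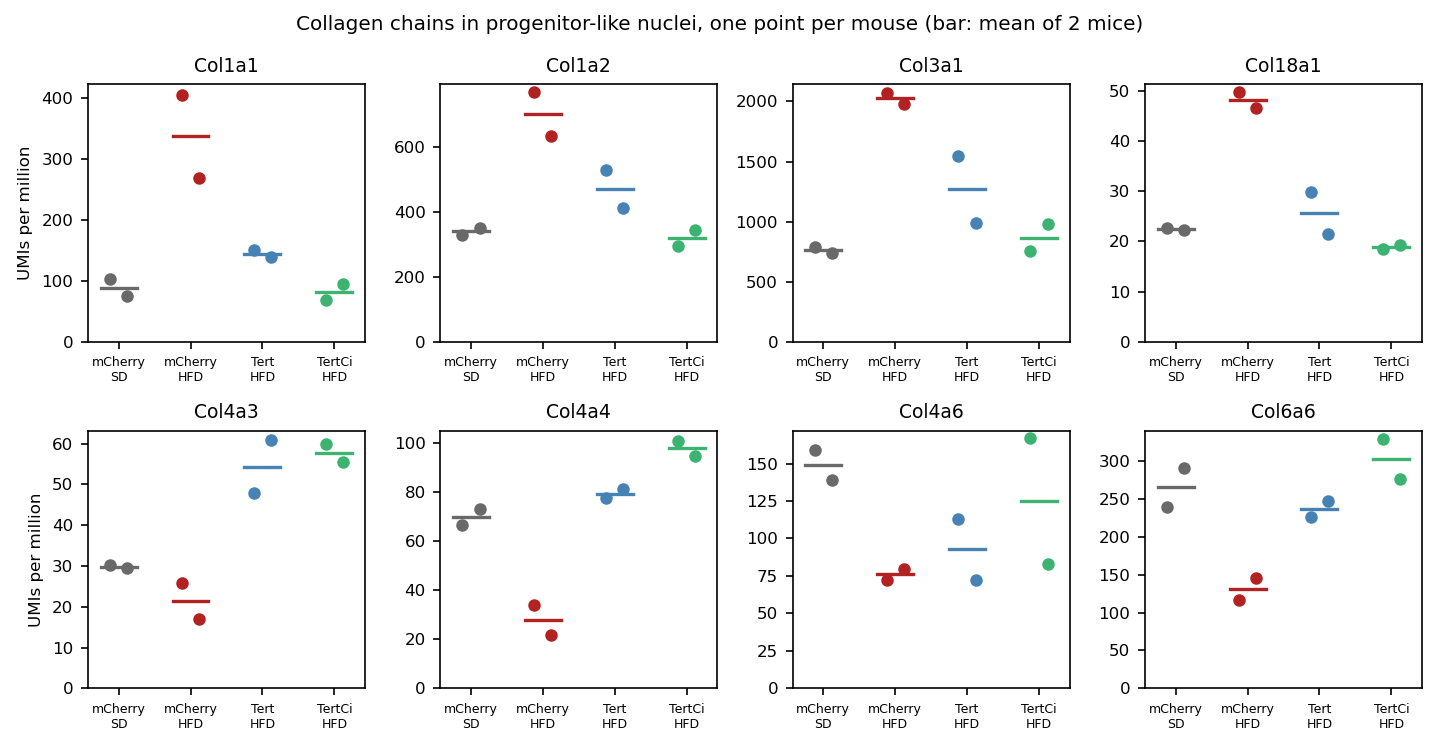
Level of 8 collagen chains in progenitor-like nuclei (CPM, linear axes from 0), with 1 point per mouse and a bar at the mean of each group of 2. Col1a1, Col1a2, Col3a1 and Col18a1 are highest in mCherry HFD, where Col4a4 and Col6a6 are lowest.

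The progenitor-like class was made of different clusters in the 4 groups, and these moved with the values above. Clusters 11 and 12, with Postn, a matrix protein gene, among their leading genes, held 71.3% and 70.8% of progenitor-like nuclei in the mCherry HFD mice. They held 1.57% and 1.24% in mCherry SD, 13.9% and 5.42% in Tert HFD, and 3.80% and 5.41% in TertCi HFD. Cluster 11 also had the most macrophage-marker RNA of the progenitor-like clusters, and the sum of the 8 macrophage markers in the class was 1295 to 1438 CPM in mCherry HFD, 192 to 335 in mCherry SD, 359 to 641 in Tert HFD and 285 to 311 in TertCi HFD, with up to 2 of the 8 at 0 in mCherry SD. The sum of the 10 progenitor markers was 8550 to 9093 in mCherry HFD and 10047 to 12672 over the other 3 groups. Every mouse had at least 26 nuclei of clusters 4, 6 and 10, in which the chains could be read without the Postn clusters.

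In these 3 clusters the mCherry HFD mice stayed highest for Col1a1, while for Col3a1 they were highest in clusters 6 and 10 and overlapped Tert HFD in cluster 4. In cluster 10, led by Adamts16, Sema3e and Opcml, Col3a1 stood at 600.2 and 421 in mCherry SD, 1818 and 1943 in mCherry HFD, 1197 and 737 in Tert HFD, and 557 and 874 in TertCi HFD. The mCherry HFD mice were highest, with no overlap. Col1a1 was above every other group in both mCherry HFD mice in clusters 4, 6 and 10, at 178 and 338, 276 and 318, and 198 and 143. Each of these Col1a1 values lay below that of free RNA in the same mouse, and so is read as background by the rule above. Each also lay above the macrophage-like level of Col1a1 in the same mouse, given below. A fit on clusters 4, 6 and 10 alone, added after the data were seen, gave 1.11 for Col1a1 (adjusted p = 0.0120, edgeR) and 1.08 for Col3a1 (adjusted p = 0.00616) for the diet. It gave -1.24 (adjusted p = 0.00257, edgeR) and -0.92 (adjusted p = 0.00747) for TertCi HFD, and -0.42 (adjusted p = 0.251) and -0.45 (adjusted p = 0.183) for Tert HFD. Col1a2 and Col18a1 lost their diet calls in these 3 clusters (0.53 and 0.82, adjusted p = 0.0505 and 0.113, edgeR), whereas their TertCi HFD calls were made there (-0.68 and -0.90, adjusted p = 0.00943 and 0.0326). Without cluster 11 alone, the diet values of Col1a1 and Col3a1 were 1.94 and 1.42 (adjusted p = 0.00405 and 0.00130, edgeR), and Col1a2 and Col18a1 were called too (1.062 and 1.24, adjusted p = 0.00241 and 0.0104). That setting also gave lower values in Tert HFD for Col1a1 (-1.19, adjusted p = 0.0213, edgeR), Col3a1 (-0.72, 0.0341), Col1a2 (-0.63, 0.0278) and Col18a1 (-0.93, 0.0169).

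The type IV chains behaved otherwise. In cluster 6, led by C7, Itgbl1 and Gria4, Col4a4 stood at 165 and 124 in mCherry SD, 330.4 and 205 in mCherry HFD, 209 and 290.0 in Tert HFD, and 264 and 312 in TertCi HFD. In that cluster, then, the mCherry HFD mice lay above the mCherry SD mice. In cluster 11 Col4a4 stood at 17.4 and 9.03 in the 2 mCherry HFD mice, which gave 747 and 199 of its nuclei. In the 3 clusters that every mouse held, the diet value was -0.26 for Col4a4 (adjusted p = 0.595, edgeR), 0.24 for Col4a5 (adjusted p = 0.511) and 0.10 for Col4a6 (adjusted p = 0.876). The last 2 had been -0.77 and -1.27 in the whole class, and were called there. For Tert HFD, Col4a4 was 0.48 (adjusted p = 0.237, edgeR), and for TertCi HFD 0.75 (adjusted p = 0.0409). Without cluster 11 alone, Col4a4 was called in all 3 contrasts, at -0.94 for the diet (adjusted p = 0.0202, edgeR), 1.10 for Tert HFD (0.00624) and 1.40 for TertCi HFD (0.000887). Col4a3 was not called in the 3 shared clusters. Without cluster 11 it was called for TertCi HFD alone (1.14, adjusted p = 0.0227, edgeR). In that setting Col4a5 and Col4a6 were not called for the diet (-0.31 and -0.68, adjusted p = 0.341 and 0.160, edgeR).

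Col6a6 did not lie apart from the other groups in mCherry HFD in any of the 3 clusters taken singly. It is among the leading genes of cluster 4, led by Dchs2, Rtl4 and Amph, where it stood at 388 and 544 in mCherry SD, 453 and 230 in mCherry HFD, 457 and 372 in Tert HFD, and 531 and 372 in TertCi HFD. It stood at 174 and 86.9, 167 and 226, 192 and 81.4, and 175 and 186 in cluster 6, and at 99.4 and 54.1, 54.9 and 109.6, 78.0 and 65.8, and 69.8 and 138.7 in cluster 10. The mCherry HFD mice overlapped each other group in clusters 4 and 10 and did not lie lowest in cluster 6. The fit on the sum of clusters 4, 6 and 10 still gave -1.26 (adjusted p = 0.00101, edgeR) for the diet, 1.13 (adjusted p = 0.00276) for Tert HFD and 1.50 (adjusted p = 0.000193) for TertCi HFD. That sum holds the clusters in different shares, however: cluster 4 made up 42.6% and 45.4% of it in mCherry SD, 11.4% and 13.8% in mCherry HFD, 39.0% and 63.7% in Tert HFD, and 54.4% and 61.0% in TertCi HFD. The part of this mix in the fitted values, of Col6a6 and of the other chains, was not tested. In all, these 3 clusters gave 2 chains higher and 1 lower of 27 tested for the diet, with 5.43% of all genes called higher and 2.94% called lower. They gave 4 higher and none lower for Tert HFD, with 2.45% and 5.24% of all genes, and 4 higher and 5 lower for TertCi HFD, with 5.07% and 9.6%.

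**Figure D3:**
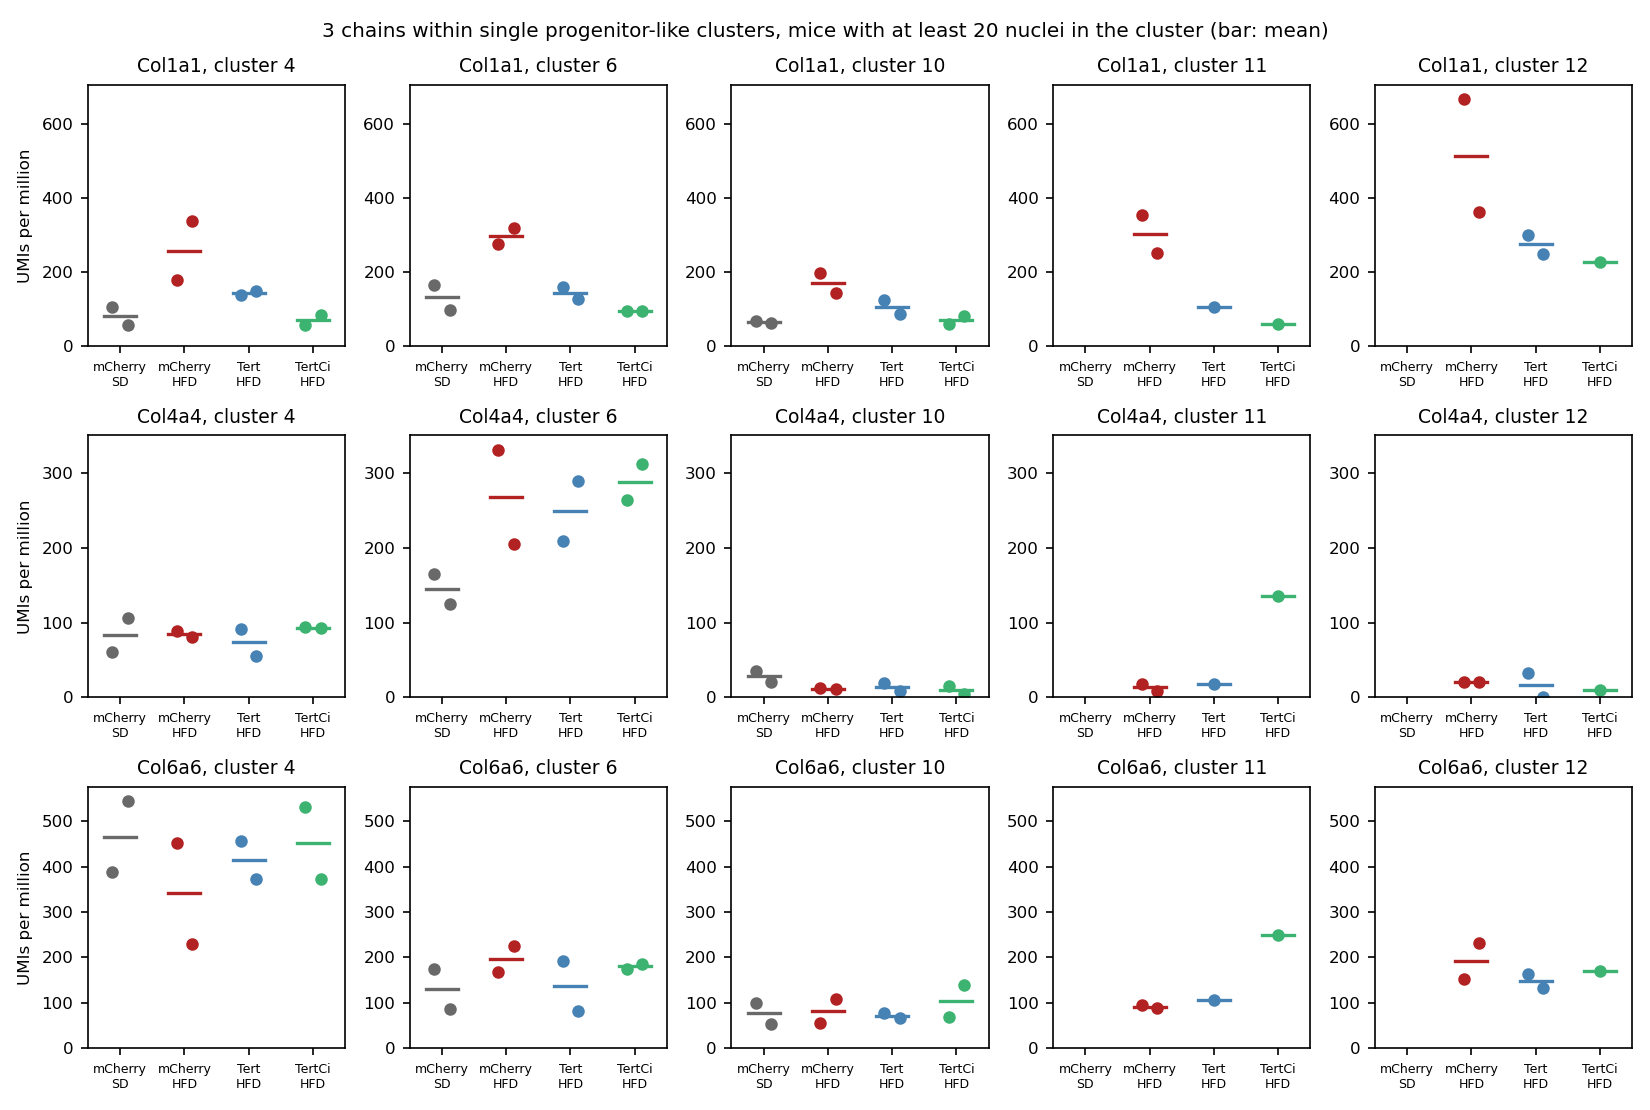
Col1a1, Col4a4 and Col6a6 (CPM) in each of the 5 progenitor-like clusters, with 1 point per mouse that had at least 20 nuclei there. Col1a1 is highest in mCherry HFD mice in clusters 4, 6 and 10, at levels below their free RNA, while Col4a4 is not lowest in them in cluster 6.

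In adipocyte-like nuclei the diet raised 14 collagen chains and lowered 1 of the 29 tested, against 13.5% of all genes called higher and 8.83% called lower. The chains that rose came from the fibrillar (5 of 8 tested), type VI (3 of 5), type IV (2 of 6) and smaller families. Of the 14, 6 (Col1a1, Col1a2, Col3a1, Col6a1, Col6a2 and Col6a5) were above free RNA in at most 1 of 8 mice, so that all 3 type VI chains in the count are read as background, and 7 were above it in more than 4 mice. The median over the 29 was 0.67 on the log2 scale, and that of all genes 0.04. Levels of the classes cannot separate more RNA per cell from a different mix of cells. Clusters with markers of more than 1 class, most of them with adipocyte markers, entered no class. They took a larger share of the standard-diet libraries than of any other, and the part of this loss in the diet values was not tested by itself. The mCherry SD mice had 37.3% and 53.2% of these nuclei in cluster 14, while mCherry HFD mice, with 264 and 92 nuclei, had most in clusters 3, 1 and 22. Counts were 6, 8, 4 and 5 in place of 15 without mCherry SD rep144, mCherry SD rep146, mCherry HFD rep128 and mCherry HFD rep129.

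Col16a1 had the change with the smallest adjusted p. It stood at 7.34 and 4.64 CPM in mCherry SD, 59.9 and 48.6 in mCherry HFD, 39.9 and 52.2 in Tert HFD, and 27.1 and 22.8 in TertCi HFD. The standard-diet mice lay below all 6 others, a change of 2.84 ± 0.34 for the diet (adjusted p = 0.00171, edgeR), made in 8 of 8 fits that left out 1 mouse. In free RNA it stood at 10.1 and 8.21, 12.6 and 32.4, 18.5 and 22.1, and 28.1 and 17.7. Col6a1 rose by 1.42 ± 0.23 (adjusted p = 0.00543, edgeR) and Col6a2 by 1.25 ± 0.22 (adjusted p = 0.00712), the latter not without mCherry HFD rep128 (1.35, adjusted p = 0.0601). Both encode chains of the core type VI molecule, each was above free RNA in 1 of 8 mice and so is read as background, and in both the standard-diet mice were lowest, at 18.5 and 27.2 for Col6a1 against 68.4 and 93.3 in mCherry HFD.

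Col5a3 stood at 164 and 199.5 in mCherry SD, 406 and 733 in mCherry HFD, 789 and 735 in Tert HFD, and 415 and 506 in TertCi HFD. The 6 high-fat mice were all above the 2 standard-diet mice. The difference for the diet was 1.27 ± 0.28 (adjusted p = 0.0142, edgeR), and was not called without mCherry SD rep144 (1.15, adjusted p = 0.0877) or mCherry HFD rep129 (0.73, adjusted p = 0.0792). Col15a1, whose product lies in the basement membrane zone, stood at 219 and 353 in mCherry SD, 301 and 292 in mCherry HFD, 531 and 441.5 in Tert HFD, and 314.5 and 548 in TertCi HFD. It was called higher in TertCi HFD than in mCherry HFD, by 1.04 ± 0.28 (adjusted p = 0.0335, edgeR). That call ended without mCherry HFD rep128 (1.07, adjusted p = 0.188), mCherry HFD rep129 (1.07, 0.126) or TertCi HFD rep140 (0.59, 0.138). Col4a1 stood at 191 and 279, 447 and 483, 456 and 324, and 392 and 401, and rose by 0.61 (adjusted p = 0.0392, edgeR) with the diet, not without mCherry SD rep144 (0.38, adjusted p = 0.310).

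Types I and III took another course in these nuclei. Col1a1 stood at 21.1 and 17.2 in mCherry SD, 83.0 and 100.2 in mCherry HFD, 35.6 and 31.6 in Tert HFD, and 10.6 and 17.0 in TertCi HFD. Col3a1 stood at 132.5 and 142, 383 and 655, 279 and 143, and 57.9 and 127.6. In both, the mCherry HFD mice were above all others. Col1a1 rose by 1.87 ± 0.28 with the diet (adjusted p = 0.00404, edgeR), and in TertCi HFD it was lower than in mCherry HFD by -2.24 ± 0.29 (adjusted p = 0.00418), the latter not without mCherry HFD rep128 (-2.37, adjusted p = 0.0578). Adipocyte-like levels of Col1a1, Col1a2 and Col3a1 were below those of free RNA in 8 of 8 mice, and are read as background, not counted as expression. Progenitor markers in these nuclei summed to 1815 to 2977 in mCherry HFD, 2166 to 2245 in mCherry SD, 1777 to 2182 in Tert HFD and 1319 to 1962 in TertCi HFD.

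For TertCi HFD against mCherry HFD, 2 adipocyte-like chains rose (Col15a1 and Col5a1) and 5 fell, 4 of these below free RNA in every mouse, with 7.87% of all genes called higher and 10.6% called lower. The 8 macrophage markers in these nuclei summed to 456 to 919 in TertCi HFD and 1282 to 1592 in mCherry HFD, and the 7 mesothelial markers to 22.3 to 31.1 and 42.1 to 102, and their part was not tested. The count of called chains was 0 without mCherry HFD rep128 and 1 without mCherry HFD rep129. For Tert HFD, edgeR called 0 of the 29, with 1.36% of all genes called higher and 2.31% called lower, while 11 had an unadjusted p under 0.05 and DESeq2 called 3. Cluster 7 held 0.728% and 49.4% of adipocyte-like nuclei in the 2 Tert HFD mice and at most 6.52% in any other mouse. Cluster 22 held 64.8% and 36.3% in TertCi HFD, 37.4% and 16.1% in Tert HFD, and 33.7% and 20.7% in mCherry HFD. The count was 4 when either TertCi HFD mouse was left out of the fit, 2 without mCherry SD rep144, and 1 without mCherry SD rep146 or Tert HFD rep134. The p that misses the threshold does not show that the chains were at 1 level in both groups.

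**Figure D4:**
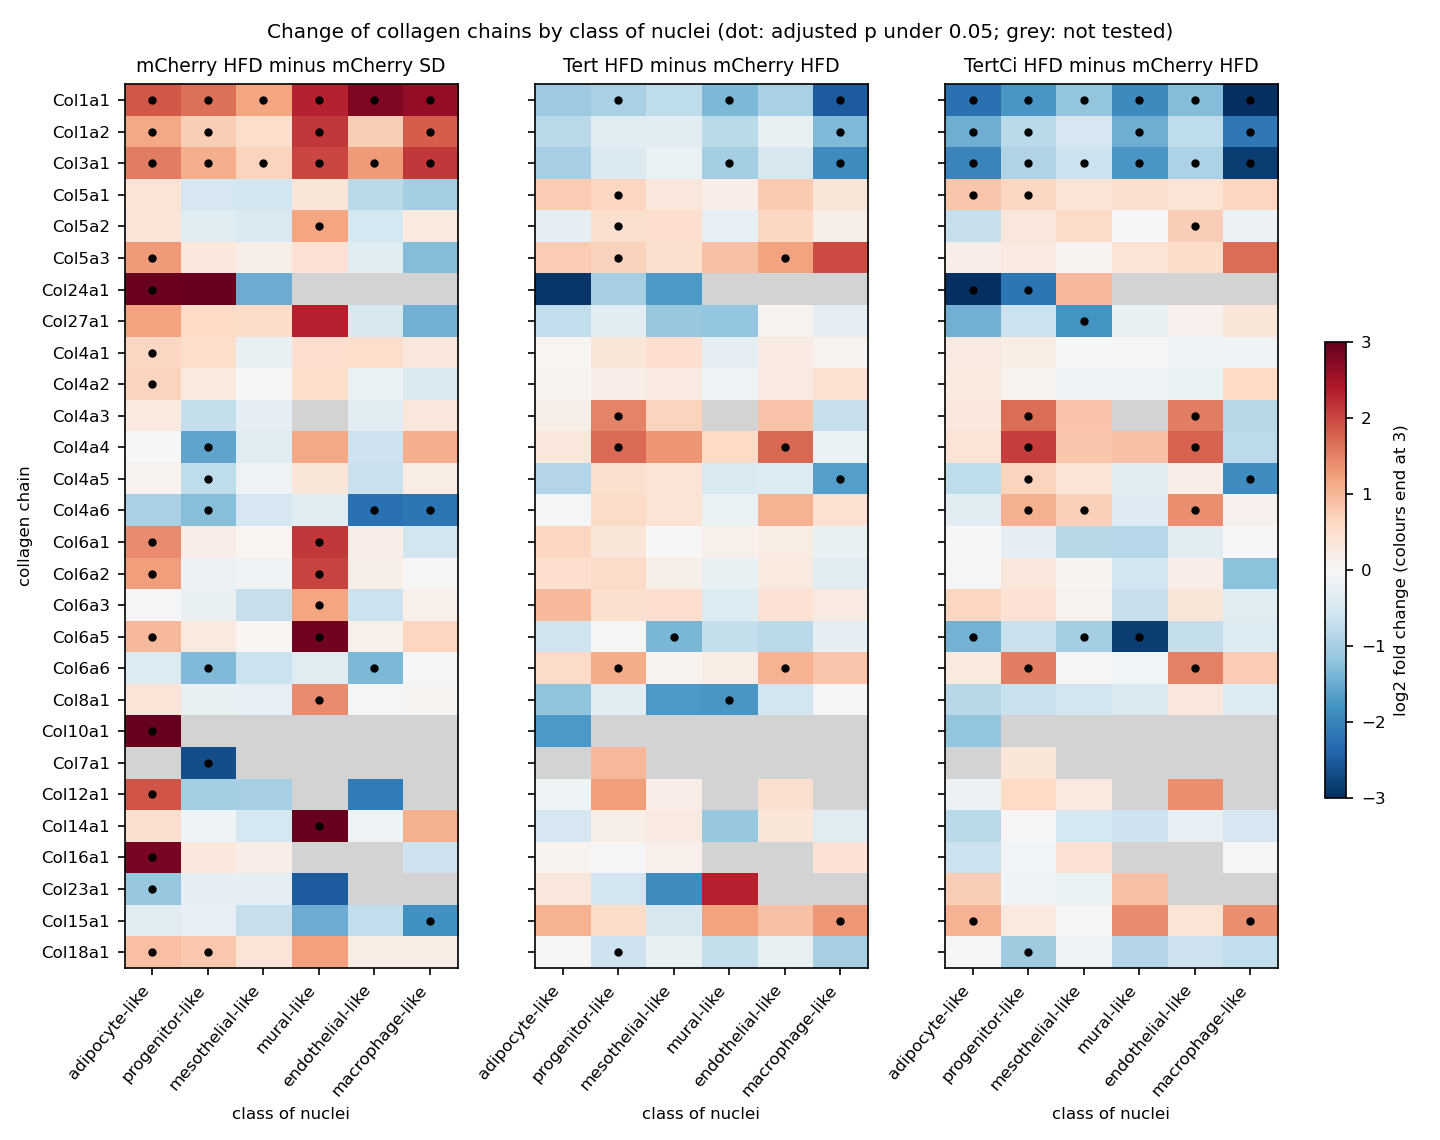
Log2 fold changes of the collagen chains (rows) by class (columns) for the diet, for Tert HFD and for TertCi HFD, both of these against mCherry HFD. Dots mark an adjusted p under 0.05, grey cells were not tested, and colours end at 3. Col1a1 and Col3a1 are higher for the diet in all 6 classes, and lower for TertCi HFD in all 6. Both were above free RNA in 0 of 8 mice in adipocyte-like and macrophage-like nuclei. In mural-like and endothelial-like nuclei, Col1a1 was above it in 1 and 2 mice and Col3a1 in 2 and 4.

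Mesothelial-like nuclei were 1 cluster. Col3a1, among the chains with most UMIs there, stood at 868 and 953 in mCherry SD, 1534 and 1803 in mCherry HFD, 1286 and 1486 in Tert HFD, and 948 and 894 in TertCi HFD. The 2 high-fat mCherry mice were above all others, and the level was above that of free RNA in 8 of 8 mice. The diet difference was 0.66 (adjusted p = 0.0333, edgeR), and that of Col1a1 1.18 ± 0.26 (adjusted p = 0.00327), a chain above free RNA in 4 of 8 mice. Neither was called without mCherry HFD rep128, as for Col1a1 (0.96, adjusted p = 0.0848). These were the 2 calls of 29 chains for the diet, both higher, with 9.28% of all genes called higher and 4.53% called lower. Without mCherry SD rep144 or mCherry HFD rep129 the diet count was 1, and without TertCi HFD rep138 and rep140 it was 4 and 5.

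Col4a6 stood at 446 and 465 in mCherry SD, 389 and 358 in mCherry HFD, 527 and 371 in Tert HFD, and 618 and 418 in TertCi HFD. It was called higher in TertCi HFD, by 0.71 ± 0.21 (adjusted p = 0.0302, edgeR), though a single mouse carried much of it: without TertCi HFD rep138 the value was 0.40 (adjusted p = 0.451), and the call also ended without mCherry HFD rep128 (0.75, 0.153) or rep129 (0.68, 0.203). Marker sums moved with TertCi HFD in these nuclei: the 7 mesothelial markers summed to 3038 to 5084, against 2309 to 2531 in mCherry HFD, the 8 endothelial markers to 435 to 449, against 152 to 164, and the 8 macrophage markers to 936 to 1392, against 1823 to 2158, and their part in the calls was not tested. Col5a2 stood at 692 and 652, 556 and 596, 655 and 957, and 741 and 721, and was not called. Col6a5, a type VI chain, stood at 177 and 137.5 in mCherry SD, 189 and 198 in mCherry HFD, 66.4 and 101 in Tert HFD, and 87.3 and 72.1 in TertCi HFD. It was lower in Tert HFD by -1.37 ± 0.27 (adjusted p = 0.00401, edgeR), not without Tert HFD rep134 (-0.90, adjusted p = 0.526), and in TertCi HFD by -1.03 ± 0.24 (adjusted p = 0.00729). In this class 1 chain fell for Tert HFD, with 1.11% of all genes called higher and 4.06% called lower. For TertCi HFD 1 rose and 4 fell, with 5.13% called higher and 8.14% lower. That count was 1 without either mCherry HFD mouse, 2 without TertCi HFD rep138, 3 without either Tert HFD mouse and 8 without TertCi HFD rep140.

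In mural-like nuclei 10 of 24 chains rose with the diet and none fell, with 8.28% of all genes called higher and 7.14% called lower. The standard-diet mice gave 26 and 35 such nuclei. The 10 were Col1a1, Col1a2, Col3a1, Col5a2, Col6a1, Col6a2, Col6a3, Col6a5, Col8a1 and Col14a1. Col3a1 stood at 159 and 245 in mCherry SD, 903 and 985 in mCherry HFD, 576 and 286 in Tert HFD, and 245 and 256 in TertCi HFD. The mCherry HFD mice lay above all others, by 2.00 ± 0.29 for the diet (adjusted p = 0.000169, edgeR) and with -1.76 ± 0.28 for TertCi HFD (adjusted p = 0.000612), both made in 8 of 8 fits that left out 1 mouse. Its level was above that of free RNA in 2 of 8 mice. Col5a2 stood at 249 and 167, 487 and 565, 474 and 352, and 528 and 409.5, above free RNA in 6 of 8 mice, and rose by 1.19 ± 0.28 with the diet (adjusted p = 0.00674, edgeR). Col4a1, at 249 and 322, 494 and 430.5, 465 and 242, and 372 and 482, was not called.

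Of these 10 chains, 3 (Col5a2, Col6a2 and Col6a3) were above free RNA in more than 4 of 8 mice. Marker sums moved with the diet in mural-like nuclei. The 9 adipocyte markers summed to 2310 to 4610 CPM in mCherry SD, above the 8 mural markers (1300 to 1659), and to 151 to 368 in mCherry HFD, below the mural markers (2749 to 3557). In Tert HFD they summed to 1239 to 3281 and in TertCi HFD to 1492 to 2187, so that they moved with those contrasts as well. The 10 progenitor markers went from 1635 to 2856 in mCherry SD to 3416 to 3998 in mCherry HFD. Up to 1 marker of each list was at 0 in a mouse, and the part of these sums in the calls was not tested. Without mCherry SD rep146 the diet count was 3, and without mCherry HFD rep128 it was 6. For Tert HFD 3 chains fell (Col8a1, Col1a1 and Col3a1), with 3.37% of all genes called higher and 3.13% called lower, a count of 1 without mCherry HFD rep128 and 0 without mCherry HFD rep129 or Tert HFD rep136. For TertCi HFD 4 fell (Col6a5, Col1a1, Col3a1 and Col1a2), with 4.59% called higher and 6.2% called lower, a count of 1 without mCherry HFD rep128 and 2 without TertCi HFD rep138.

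In endothelial-like nuclei the 4 chains called for the diet were also called, in the same direction, in progenitor-like nuclei as a whole. Among these, Col4a6 had the opposite sign in the progenitor-like clusters that every mouse held. For the diet in endothelial-like nuclei, Col1a1 and Col3a1 rose and Col4a6 and Col6a6 fell of 24 tested, with 5.38% of all genes called higher and 4.06% called lower, from 26 and 43 nuclei of the standard-diet mice. The class is 2 clusters, of which cluster 16 held 69.2% and 46.5% in mCherry SD, 33.8% and 25.2% in mCherry HFD, 30.2% to 40.3% in Tert HFD and 34.6% to 45.8% in TertCi HFD. Under a further naming rule, added after the data were seen, cluster 16 also bore progenitor markers and left the class. Counts under that rule are given in the last section. Col6a6 stood at 118 and 81.9 in mCherry SD, 40.1 and 40.5 in mCherry HFD, 77.9 and 84.0 in Tert HFD, and 91.7 and 125.5 in TertCi HFD, with both mCherry HFD mice lowest. It rose by 1.52 ± 0.27 in TertCi HFD against mCherry HFD (adjusted p = 0.000672, edgeR), a call made in 8 of 8 fits that left out 1 mouse. Col4a4 rose by 1.73 in Tert HFD (adjusted p = 0.00944, edgeR) and by 1.78 in TertCi HFD (adjusted p = 0.00486), from 12.2 and 3.68 in mCherry HFD to 35.7 and 27.1 and to 34.8 and 28.7. Col3a1 lay below free RNA in every mouse of mCherry SD and mCherry HFD, the groups of its diet call. Col4a4 was above free RNA in 3 of 8 mice, none of mCherry HFD, and Col1a1 in 2 of 8, and levels below free RNA are read as background. Col28a1, placed in this class, stood at 29.5 and 20.5, 32.6 and 33.1, 28.3 and 8.13, and 42.6 and 41.2, and was not called. Progenitor markers summed to 2091 to 2510 in mCherry HFD endothelial-like nuclei and 3260 to 5328 over the other groups. That is the direction of the Col4a4, Col4a6 and Col6a6 calls and opposite to that of Col1a1 and Col3a1, and the part of these markers in the values was not tested.

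The 3 chains with most UMIs in endothelial-like nuclei were Col3a1, Col5a2 and Col4a1. Col3a1 stood at 217 and 291 in mCherry SD, 682 and 706 in mCherry HFD, 614 and 315 in Tert HFD, and 226 and 446 in TertCi HFD, above free RNA in 4 of 8 mice. Col5a2 stood at 512 and 352, 347 and 281, 448 and 488, and 381 and 599. Col4a1 stood at 137.9 and 299, 373 and 369.6, 483 and 349.7, and 263 and 378. The mCherry HFD mice were highest for Col3a1 and lowest for Col5a2.

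Counts in this class moved with single mice. The diet count was 0 without mCherry SD rep144, 1 without mCherry SD rep146, and 2 without either mCherry HFD mouse. For Tert HFD 3 chains rose and none fell, with 4.41% of all genes called higher and 7.76% called lower, a count of 1 without mCherry HFD rep128, 0 without mCherry HFD rep129, and 8 and 7 without TertCi HFD rep138 and rep140. For TertCi HFD 5 rose and 2 fell, with 8.55% called higher and 12.4% called lower, and 3 were left without either mCherry HFD mouse.

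Macrophage-like nuclei held few collagen UMIs. The levels of Col1a1, Col1a2 and Col3a1 there were below those of free RNA in 8 of 8 mice, and are read as background. Col3a1 stood at 41.9 and 42.7 in mCherry SD, 135 and 273 in mCherry HFD, 54.5 and 43.6 in Tert HFD, and 29.8 and 17.7 in TertCi HFD, while free RNA had 383 and 324, 914 and 1269.6, 611 and 283, and 211 and 322. Col1a2 stood at 9.66 and 15.5, 41.1 and 64.8, 16.2 and 23.5, and 11.4 and 9.27. Col1a1 stood at 12.9 and 5.17, 42.2 and 62.8, 7.95 and 9.69, and 4.01 and 6.74. For all 3 chains the mCherry HFD mice were highest both in the class and in free RNA.

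The macrophage-like test called 3 chains higher and 2 lower for the diet of 24 tested, with 11.6% of all genes called higher and 9.34% called lower. It called 1 higher and 4 lower for Tert HFD, with 7.65% and 11.9% of all genes, and 1 higher and 4 lower for TertCi HFD, with 10.8% and 15.4%. The values for Col1a1 were 2.64 ± 0.50 for the diet (adjusted p = 0.00226, edgeR), -2.50 ± 0.35 for Tert HFD (adjusted p = 0.000437) and -3.30 ± 0.39 for TertCi HFD (adjusted p = 8.57e-05). Without mCherry SD rep144 and rep146 the diet count was 3 and 0. The class was made of different clusters by group. Cluster 18, with F13a1 and Cd163 among its leading genes, held 77.4% and 80.7% of it in mCherry SD, 33.4% to 54.5% in Tert HFD and 47.5% to 55.3% in TertCi HFD, but 0.592% and 1.52% in mCherry HFD. There clusters 20 and 26 held 28.3% to 44.2% and 28.6% to 42.2%. Progenitor markers in these nuclei summed to 316 to 614 in mCherry HFD, 392 to 419 in mCherry SD, 399 to 449 in Tert HFD and 244 to 351 in TertCi HFD. Col15a1 went the other way, at 35.4 and 40.1, 10.6 and 13.6, 22.3 and 33.2, and 23.0 and 35.4, below free RNA in 8 of 8 mice, where it stood at 144.4 and 365, 119.7 and 107.7, 343 and 214, and 154 and 329. The mCherry HFD mice were lowest in both.

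**Figure D5:**
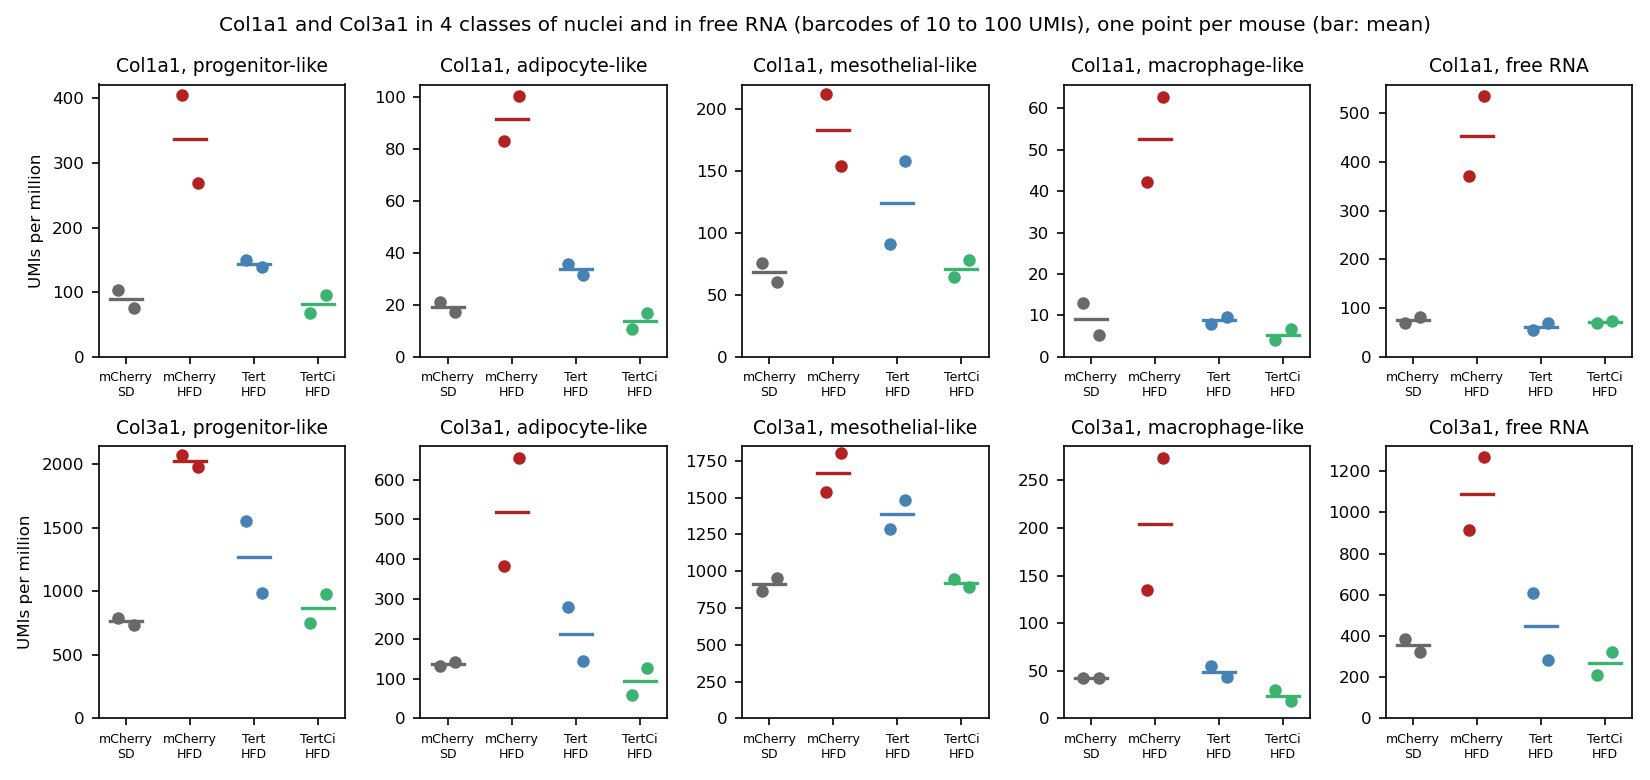
Col1a1 and Col3a1 (CPM, with 1 point per mouse) in progenitor-like, adipocyte-like, mesothelial-like and macrophage-like nuclei and in free RNA. In each of these the highest mouse for either chain is of the mCherry HFD group, and macrophage-like levels lie below those of free RNA in every mouse.

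In the sum over all nuclei of a mouse, 40 chains were tested, and 7 rose and 5 fell with the diet, with 22.2% of all genes called higher and 18.5% called lower. Col1a1 (1.82), Col3a1 (1.30) and Col1a2 (1.11) rose, and Col15a1 (-1.48) and Col4a6 (-1.51) fell. In bulk sums of this kind, fewer cells of a type and less RNA per cell cannot be told apart. For Tert HFD, 9 rose and 3 fell, with 11% of all genes called higher and 10.8% called lower. Col5a3 (2.00) and Col15a1 (1.82), both placed in adipocyte-like nuclei, led the rise. For TertCi HFD 9 rose and 6 fell, with 16.2% and 19.3% of all genes, Col15a1 by 2.00 and Col5a3 by 1.68. The Tert HFD count of 12 became 1 without mCherry HFD rep128, 4 without mCherry HFD rep129 and 5 without Tert HFD rep136. The diet count of 12 became 7 without mCherry SD rep146 or mCherry HFD rep129 and 5 without mCherry HFD rep128, which also took the TertCi HFD count from 15 to 9.

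Tert HFD and TertCi HFD were also compared with each other. By edgeR's adjusted p, 0 chains were called in all nuclei and in each of the 6 classes, while 2 to 8 had an unadjusted p under 0.05, and DESeq2 called 0 as well. Of all genes, 0% were called too, apart from 0.00912% (1 gene, lower) in mesothelial-like nuclei. Without TertCi HFD rep140, 3 were called in endothelial-like nuclei. The test does not show that the chains were equal in these 2 groups: in progenitor-like nuclei the Tert HFD mice stood at 1550.0 and 989 for Col3a1 and the TertCi HFD mice at 753 and 979.

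The genes that make, receive and regulate collagen were read from lists chosen with earlier results of these data known. In progenitor-like nuclei, 29 of 32 genes of collagen synthesis and processing were tested, and for the diet 1 rose and 6 fell, a median of -0.07. Ppib, a folding enzyme of the procollagen hydroxylation complex, rose by 1.75, and the proteases Tll2 (-2.92), Tll1 (-1.87) and Adamts3 (-1.44) and the glycosyltransferase Colgalt2 (-2.47) fell. Tll2 is among the leading genes of cluster 4, which held 41.9% and 44.8% of progenitor-like nuclei in mCherry SD, 3.27% and 4.02% in mCherry HFD, 33.6% and 60.3% in Tert HFD, and 52.3% and 57.7% in TertCi HFD, and the part of that share in its values was not tested. The shares of all genes called in these nuclei were 13.1% higher and 10.1% lower. For Tert HFD against mCherry HFD 6 rose and 2 fell, among them Tll2 (3.49) and Ppib (-1.21), with 8.85% and 13.9% of all genes. For TertCi HFD 5 rose and 7 fell, with 13.9% and 19.4% of all genes, among them Tll2 (4.40), Colgalt2 (3.10), Pcolce (-1.65) and Plod3 (-1.59). Where called, Ppib, Pcolce and Plod3 had the sign of Col1a1 and Col3a1, and Tll2 and Colgalt2 the opposite one.

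Of 11 collagen receptors, 10 were tested in progenitor-like nuclei, and for the diet Lair1 (2.38) and Adgrg6 (1.77) rose while Itga11 (-0.83) and Ddr2 (-0.77) fell. Lair1 is an inhibitory collagen receptor of immune cells, and the macrophage marker sums above moved with it. In both Tert HFD and TertCi HFD 2 receptors were higher than in mCherry HFD and 2 lower. Itga11 and Ddr2, receptors for fibrillar collagen on mesenchymal cells, were higher (0.84 and 0.78 in Tert HFD, 1.16 and 0.72 in TertCi HFD), and Lair1 and Adgrg6 lower (-1.43 and -1.28, and -2.10 and -2.05). Of 18 regulators of the matrix, 17 were tested, and for the diet 3 rose (Tgfb1 by 1.24, Bgn by 1.17, Postn by 1.17) and 4 fell, among them Tgfb2 (-0.66) and the TGF-beta co-receptor Tgfbr3 (-0.64). Postn was also among the leading genes of clusters 11 and 12. For the diet, the macrophage marker sums moved with Tgfb1 as well, and their part in the values of the list genes was not tested. No value of a list gene is given here without cluster 11 or in the clusters that every mouse held. For Tert HFD 1 regulator rose (Tgfbr2, 0.52) and 2 fell (Postn and Bgn, -0.89 and -0.85), and for TertCi HFD 4 rose and the same 2 fell (-1.17 and -1.18). Of all genes tested in progenitor-like nuclei, 13.1% were called higher and 10.1% lower for the diet. These shares were 8.85% and 13.9% for Tert HFD, and 13.9% and 19.4% for TertCi HFD. In adipocyte-like nuclei few of these genes were called for the diet: 1 of 30 synthesis genes (Ppib, 1.27), 2 of 11 receptors (Adgrg1, 1.97, and Mrc2, 1.67) and 3 of 17 regulators (Postn by 2.42, Lum by 1.72, and Tgfbr3 by -1.47). These list genes were not set against their levels in free RNA, and Postn is among the leading genes of the progenitor-like clusters 11 and 12. Over all genes tested in adipocyte-like nuclei, 13.5% were called higher and 8.83% lower. For Tert HFD none of the 3 lists held a called gene there, with 1.36% of all genes called higher and 2.31% lower.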

How the data were processed

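Single-nucleus RNA was read as UMI counts per gene and barcode in unfiltered matrices deposited by the authors. The file headers name Cell Ranger 7.1.0, whereas the submitters' processing notes name Cell Ranger 5.0.1, bcl2fastq 2.20.0 and mm39. The unit is the raw count, not normalized. Per library, barcodes passed with at least 500 UMIs (or 0.1 times percentile 99 of that library's 5000 deepest barcodes, where higher), 300 genes and at most 5% mitochondrial UMIs. Scrublet's automatic threshold marked almost no barcode, so the highest doublet scores were removed at 0.8% per 1000 nuclei. Clustering used scanpy 1.11.5 (2000 variable genes without collagen genes, 30 components, 15 neighbours, resolution 1), giving 36 clusters, of which 10 bore markers of more than 1 class ("mixed") and entered no class. Mixed clusters took a larger share of the standard-diet libraries than of any other. The largest (adipocyte and mesothelial markers) took 647 of 2546 nuclei from rep144 and 329 of 2999 from rep146. It took 20 of 7433 from rep128 and 15 of 2878 from rep129. Another, of 37 nuclei, went the other way. Cluster 5, progenitor-like with macrophage markers, was mixed, whereas cluster 11 was kept. The part of this unequal loss in the diet comparisons was not tested by itself. The naming rule was settled after other rules had been tried, with class names but not collagen levels in view. It asked for at least 3 markers raised 2-fold.

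Counts were summed per mouse and class, for mice with 20 or more nuclei. Tests used edgeR 4.0.16 (TMM, filterByExpr, glmQLFTest, Benjamini-Hochberg) in R 4.3.3, all groups in 1 fit. The script was tested on simulated data. DESeq2 1.42.0, other size factors, filters, nucleus minimum, clusterings and naming, and leaving out each mouse were alternatives. The mesothelial-like fit, the fits on parts of the progenitor-like class and a further naming rule were added after the data were seen. Members and lists were chosen with earlier results of these data known. All members could be named, and values in every mouse are given for chains called in their highest class and for the 3 with most UMIs in each class, with others chosen after their values were seen. The 2 mice of a group differed by 35.3 to 313 times counting noise (chi-square per degree of freedom), so none was counted as a repeat.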

Additional observations from a re-analysis of the deposited data

Results flagged for a closer look

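Chain values stood out in clusters that no comparison of classes used, at more than 5 times the highest group mean in any tested class, on at least 30 UMIs. Col23a1 stood at 373.7 CPM in a mixed cluster of 284 nuclei (1034 UMIs) and at 186.9 in a mixed cluster of 148 nuclei (306 UMIs). All nuclei of both clusters came from mCherry SD rep146. Col26a1 stood at 151 in an epithelial-like cluster of 64 nuclei led by Akr1b7, Crisp1 and Pax2 (46 UMIs), also of mCherry SD rep146, while its highest group mean in a tested class was 2.23. Col6a4 stood at 731 in an epithelial-like cluster of 120 nuclei (777 UMIs), all of mCherry HFD rep128, against 7.07 at most in a tested class. That cluster was led by Zfp804b, Lipc and Adam28, with Adam7, Lcn8 and Lcn9 also among its leading genes. Whether the nuclei of these single-mouse clusters belong to adipose tissue was not tested. These nuclei enter the sums over all nuclei, in which Col23a1 was called lower for the diet (-2.82) and Col6a4 lower for TertCi HFD (-3.47), the latter not without mCherry HFD rep128.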

How the results depend on the processing

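No paired analysis was possible because the replicate numbers differ between groups. Of 143 calls, RLE size factors kept 142 and DESeq2 118, and of 1140 refits without 1 mouse, 837 kept the call and 303 lost it, with no sign turned. With 1000 UMIs as the minimum in every library, counts of called chains became 3 for TertCi HFD in adipocyte-like nuclei, 4 for Tert HFD in progenitor-like, 8 for TertCi HFD in macrophage-like, 1, 1 and 3 for the diet, Tert HFD and TertCi HFD in endothelial-like, 4, 0 and 0 in mural-like and 1, 0 and 0 in mesothelial-like nuclei. DESeq2 gave 3 for Tert HFD in adipocyte-like, 1 and 2 for Tert HFD and TertCi HFD in endothelial-like, 1 for Tert HFD in mural-like, and 2 and 1 for Tert HFD and TertCi HFD in mesothelial-like nuclei. No filter on low counts gave, for Tert HFD, 19 over all nuclei, 9 in adipocyte-like, 6 in endothelial-like and 3 in mesothelial-like nuclei, and 12 for TertCi HFD in adipocyte-like nuclei. Between Tert HFD and TertCi HFD it gave 4 over all nuclei, 2 in progenitor-like, and 1 each in adipocyte-like, macrophage-like, endothelial-like and mural-like nuclei. With collagen genes allowed in clustering, Tert HFD had 1 call in adipocyte-like, 1 in endothelial-like and 2 in mesothelial-like nuclei, and endothelial-like nuclei 1 for the diet and 4 for TertCi HFD. A class set per nucleus gave 8 for the diet and for TertCi HFD in macrophage-like nuclei, and 9 and 3 for the diet and Tert HFD in mesothelial-like nuclei. The further naming rule, which left no mural-like class and so no value there, gave 2 for Tert HFD in adipocyte-like nuclei and 0, 1 and 4 for the diet, Tert HFD and TertCi HFD in endothelial-like nuclei. The progenitor-like clusters held by every mouse gave 3 for the diet and 4 for Tert HFD, with opposite signs for Col4a5 (0.24 for the diet, -0.30 for TertCi HFD) and Col4a6 (0.10 and -0.30). Col6a5 turned to -0.36 for the diet in adipocyte-like nuclei and Col5a2 to -0.0302 for TertCi HFD in endothelial-like nuclei with 1000 UMIs, and Col6a5 to -0.0348 for the diet in mural-like nuclei with collagen genes allowed. The cause was not tested. The class with the highest level moved for 6 to 11 of 41 chains over 4 alternatives. Leaving out each mouse gave, for the diet, Tert HFD and TertCi HFD, 5 to 11, 1 to 14 and 9 to 17 calls over all nuclei. It gave 4 to 15, 0 to 4 and 0 to 8 in adipocyte-like, 5 to 12, 3 to 12 and 7 to 12 in progenitor-like, 0 to 6, 4 to 6 and 4 to 6 in macrophage-like, 0 to 4, 0 to 8 and 3 to 7 in endothelial-like, 3 to 12, 0 to 4 and 1 to 4 in mural-like, and 0 to 5, 0 to 2 and 1 to 8 in mesothelial-like nuclei. Between Tert HFD and TertCi HFD the range was 0 to 3 in endothelial-like nuclei and 0 to 0 in the others. Depth limits the low chains and the endothelial-like and mural-like nuclei of mCherry SD, with 26 to 43 a mouse.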
